A study of Mus musculus with 6 samples.

Results

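The genes described here are 10 direct transcriptional targets of the tumour suppressor p53: Mdm2, Ccng1, Plk2, Bax, Bbc3, Pmaip1, Sesn1, Zmat3, Phlda3 and Trp53inp1. They were found on the array through the RefSeq accession printed for each probe, which gave 11 non-control probes, with Trp53inp1 on 2 probes and each other gene on 1. They are 10 of the 28563 features that were kept for testing (18638 named genes and 9925 probes without a name in the reference table used). C2C12 cells, the source of the RNA, are mouse myoblasts that leave the cell cycle and fuse into myotubes in low serum. The si-SYISL cells had received a small interfering RNA (siRNA) against SYISL, a long non-coding RNA, and the si-NC cells a control siRNA. Both groups were grown in 10% fetal bovine serum, transfected, and then kept for 2 days in 2% horse serum. Each group has 3 scanner files of single-colour Agilent arrays, each called an array below. Since the table used here gives SYISL no probe, its depletion was not checked.

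p53 is a transcription factor that is held at a low level by the ubiquitin ligase Mdm2, is stabilised by DNA damage and other stress, and binds paired copies of a 10-letter consensus near its target genes. Its targets fall into feedback regulators of p53 itself, genes that slow growth or the cell cycle, and genes that open the mitochondrial route to apoptosis. In myoblasts p53 has been linked both to cell cycle exit and to the death of cells that do not differentiate.

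The start-site windows of 4 of the genes are shown because they were searched for the p53 consensus and because these genes behaved differently from one another in the arrays. The sequences are those of RefSeq, build GRCm38.p6, from 250 bases before to 50 bases after an annotated start site, written 5′ to 3′ on the strand of the gene. Capitals mark matches to the p53 decamer consensus, which reads the same on both strands, and in Bax and Ccng1 also the adjoining decamer of a pair.
Plk2 chr13:110394794-110395093 (+ strand): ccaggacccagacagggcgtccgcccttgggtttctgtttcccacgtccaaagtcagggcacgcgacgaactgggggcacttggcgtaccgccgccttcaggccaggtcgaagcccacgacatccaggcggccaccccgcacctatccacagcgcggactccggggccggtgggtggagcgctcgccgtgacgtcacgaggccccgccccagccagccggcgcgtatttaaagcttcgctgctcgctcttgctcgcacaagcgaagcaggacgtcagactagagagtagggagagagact
Ccng1 chr11:40755237-40755536 (- strand): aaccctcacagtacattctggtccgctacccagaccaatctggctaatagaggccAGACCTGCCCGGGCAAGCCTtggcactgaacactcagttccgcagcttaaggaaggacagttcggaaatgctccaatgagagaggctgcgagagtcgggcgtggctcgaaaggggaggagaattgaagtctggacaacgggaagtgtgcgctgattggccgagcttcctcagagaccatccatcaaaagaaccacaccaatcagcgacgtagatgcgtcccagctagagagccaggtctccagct
Mdm2 chr10:117710709-117711008 (- strand): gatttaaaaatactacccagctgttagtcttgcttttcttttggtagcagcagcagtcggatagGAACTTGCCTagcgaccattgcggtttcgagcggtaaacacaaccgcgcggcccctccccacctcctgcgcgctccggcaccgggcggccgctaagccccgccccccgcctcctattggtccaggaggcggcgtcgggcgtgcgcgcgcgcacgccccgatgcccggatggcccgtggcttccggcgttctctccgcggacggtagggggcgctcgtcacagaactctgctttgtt
Bax chr7:45466849-45467148 (- strand): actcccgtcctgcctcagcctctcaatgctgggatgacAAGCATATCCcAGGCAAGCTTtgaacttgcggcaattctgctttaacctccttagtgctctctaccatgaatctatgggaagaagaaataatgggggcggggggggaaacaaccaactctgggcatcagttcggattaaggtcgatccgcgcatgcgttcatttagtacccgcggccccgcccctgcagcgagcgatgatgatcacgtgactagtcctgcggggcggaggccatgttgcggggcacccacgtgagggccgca
A chromosome was left out when the windows of the 10 genes were taken, but not from the windows of all genes. No window of Pmaip1, Zmat3 or Trp53inp1 was searched. Windows were used for 7 of the 10 genes, 10 windows in all. An exact decamer lay in 4 of these 10 windows, those of Bax, Ccng1 and Mdm2 and 1 of the Sesn1 windows, while 8.36% of the 32851 windows of all genes hold one. A pair of decamers with at most 1 mismatch in all and at most 13 bases between them lay in 2 of the 10 windows, against 1.09% of all windows. These were the window of Ccng1, whose pair begins 195 bases before the start site with no bases between the decamers, and that of Bax, whose pair begins 212 bases before the start site with 1 base between them. In the windows of Plk2, Phlda3 and Bbc3 these letters were not found, which concerns only the 300 bases searched. The p53-responsive start of Mdm2 is known to lie in its first intron. The genes were chosen as p53 targets, and Bbc3 and Sesn1 have several windows each. The shares of windows with a decamer or a pair are therefore a description of the chosen genes, not a result of the arrays.

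All 11 probes were well above background on all 6 arrays, and 0 of their spots were flagged as outliers. Within each group, the difference between replicates 1 and 3 was smaller than the noise among spots that share a probe (chi-square per probe 0.226 in si-NC and 0.153 in si-SYISL over 340 replicated probes, against 27.6 to 185 for the other 13 pairs of arrays). Each such pair was averaged and counted as 1 sample, so that each group has 2 samples. Replicate 3 of both groups was scanned apart from replicates 1 and 2. Whether it is a second scan of the same hybridisation as replicate 1 is not stated. Whether the replicates were separate cultures is not stated, and p-values measure the spread between these samples, which may be technical. Spots well above background made up 87.9% to 90.6% of all on the si-SYISL arrays and 78.2% to 84.6% on the si-NC arrays, and the part of this gap in the results below was not tested. All 8 markers of myoblasts and myotubes (such as Myod1, Myog and Des) were above background on all 6 arrays. Of markers of other cell types, 3 of 6 for leucocytes, 3 of 5 for endothelium, 3 of 5 for epithelium, 4 of 6 for neural cells and 2 of 4 for adipocytes were above background on all arrays. The summed signal of the 6 neural markers, in multiples of each array's 75th percentile, was 1.90 and 1.20 in the si-SYISL samples and 0.449 and 1.02 in the si-NC samples, and its part in the results was not tested. For the other 4 such lists the sums lay between 0.109 and 1.14 in si-SYISL and between 0.107 and 1.04 in si-NC. In bulk RNA, fewer cells that express a gene and less RNA of it per cell cannot be told apart.

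The si-SYISL and si-NC cells were compared on day 2 of differentiation to find genes that differ when SYISL is targeted. Plk2, Pmaip1, Ccng1 and Trp53inp1 were lower in si-SYISL with no overlap between the groups, while Mdm2, Phlda3 and Bbc3 lay at or slightly above their si-NC levels and Sesn1, Bax and Zmat3 overlapped. Under the same scaling 15.8% of all features were lower without overlap and 46.3% were higher. None of the 10 passed the test over all features, where limma called 0 of 28563 (0%) at an adjusted p of 0.05, so these are descriptions of 4 samples. At an unadjusted p under 0.05 there were 4 of the 10 lower and 0 higher, against 5.85% of all features lower and 16.8% higher. Below, levels are log2 signals minus the 75th percentile of the array, with n = 2 samples in each group, given first for the averaged replicates 1 and 3 and then for replicate 2. Over all features the median log2 difference (si-SYISL minus si-NC) was 0.16, so each difference is given with this median subtracted, ± SE. The adjusted p belongs to the unsubtracted value.

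Among the genes that act on growth and the cell cycle, Plk2 showed the widest difference. Plk2 is a polo-like kinase of centriole duplication and of the stress response. Its scanner intensities were 4974, 5918 and 5369.6 on si-SYISL arrays 1 to 3 and 12037, 15600.2 and 13344.5 on si-NC arrays 1 to 3. On the log2 scale the Plk2 levels were 1.01 and 1.55 in si-SYISL and 2.32 and 2.46 in si-NC. The groups were 0.76 apart at their nearest samples, and the si-SYISL samples were farther from each other (SD 0.38) than the si-NC samples (SD 0.10). The difference was -1.27 ± 0.22 (95% interval -1.86 to -0.69, adjusted p = 0.128), or 2.41-fold lower relative to the median of all features. Before the subtraction the level was 2.16-fold lower. Of all features, 1.04% had a lower difference.

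Ccng1 encodes cyclin G1, which brings protein phosphatase 2A to Mdm2. Its levels were 2.47 and 2.49 in si-SYISL and 2.95 and 3.00 in si-NC, so that the samples of each group lay close together and the groups stood 0.46 apart. The Ccng1 difference was -0.66 ± 0.11 (95% interval -0.95 to -0.37, adjusted p = 0.137). With a variance trend and robust estimation limma called 2 of the 10 genes, Ccng1 (adjusted p = 0.0378) and Plk2 (adjusted p = 0.0467), both lower, among 893 features called (3.13%). With all 6 arrays taken as separate samples it called 6 of the 10, among 34.2% of all features.

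Trp53inp1 encodes a stress protein that activates p53 through its kinases and takes part in autophagy. At its brighter probe the levels were 1.22 and 1.35 in si-SYISL and 1.64 and 1.79 in si-NC, which do not overlap. The difference there was -0.59 ± 0.13 (95% interval -0.93 to -0.25, adjusted p = 0.174). The second probe carries the same accession, was dimmer, and gave levels of -4.23 and -4.10 in si-SYISL and -4.06 and -4.09 in si-NC, with a difference of -0.25 relative to the median. Both probes were thus lower in si-SYISL, the dimmer one by less, and its groups were only narrowly apart.

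Sesn1 encodes sestrin 1, which restrains mTORC1 when amino acids are short. Its levels were 1.42 and 1.48 in si-SYISL and 1.46 and 1.62 in si-NC. The groups overlapped, and the difference of -0.25 ± 0.12 had a 95% interval of -0.58 to 0.07 (adjusted p = 0.650) and was -0.15 without si-NC replicate 2. Phlda3 encodes a small protein that competes with the kinase Akt for membrane lipids. Its levels were 3.85 and 3.70 in si-SYISL and 3.60 and 3.59 in si-NC, higher in both si-SYISL samples by a margin of 0.10. Relative to the median of all features the Phlda3 difference was 0.018 ± 0.12 (adjusted p = 0.371), and it was -0.086 without the averaged si-SYISL replicates 1 and 3, 0.14 without si-SYISL replicate 2 and 0.035 without si-NC replicate 2.

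Among the genes of the mitochondrial route to apoptosis, Pmaip1 stood apart from Bbc3 and Bax. Pmaip1, also called Noxa, encodes a BH3-only protein that neutralises Mcl1. Its levels were 0.53 and 0.80 in si-SYISL and 1.12 and 1.32 in si-NC, with no overlap. The difference was -0.72 ± 0.16 (95% interval -1.14 to -0.30, adjusted p = 0.167), or 1.65-fold lower relative to the median of all features. Before the subtraction the level was 1.47-fold lower.

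Bbc3, also called Puma, encodes a BH3-only protein that binds all anti-apoptotic BCL2 proteins. Its levels were 0.10 and 0.0044 in si-SYISL and -0.020 and -0.077 in si-NC. The si-SYISL samples were higher by a margin of only 0.024, and relative to the median of all features the difference was -0.062 ± 0.11 (95% interval -0.36 to 0.24, adjusted p = 0.581). The Bbc3 difference was 0.069 under quantile normalisation, -0.14 without the averaged si-SYISL replicates 1 and 3, 0.034 without si-SYISL replicate 2 and -0.041 without the averaged si-NC replicates 1 and 3, so no direction is given. Bax encodes the pore-forming protein of the mitochondrial outer membrane. Its levels were 1.35 and 1.11 in si-SYISL and 1.28 and 1.28 in si-NC, the si-SYISL samples lying on either side of si-NC. The Bax difference was -0.22 ± 0.13 (95% interval -0.57 to 0.14, adjusted p = 0.813). It was -0.37 without the averaged si-SYISL replicates 1 and 3 and -0.048 without si-SYISL replicate 2.

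Mdm2, the ubiquitin ligase that closes the feedback loop on p53, was the member with the highest difference. Its levels were 2.86 and 2.72 in si-SYISL and 2.40 and 2.53 in si-NC, with a margin of 0.19 between the groups. The Mdm2 difference was 0.16 ± 0.12 (95% interval -0.17 to 0.49, adjusted p = 0.225), and 28.6% of all features had a higher one. With the averaged replicates 1 and 3 left out it was 0.062 (those of si-SYISL) or 0.091 (those of si-NC), and with replicate 2 left out 0.28 (si-SYISL) or 0.25 (si-NC). Zmat3 encodes a zinc finger protein that binds RNA and affects splicing and mRNA stability. Its levels were 0.97 and 0.94 in si-SYISL and 0.94 and 0.98 in si-NC, which cannot be distinguished. The difference of -0.17 ± 0.11 relative to the median (95% interval -0.46 to 0.12, adjusted p = 0.977) comes from the median that was subtracted, and was -0.11 without si-SYISL replicate 2.

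**Figure D1:**
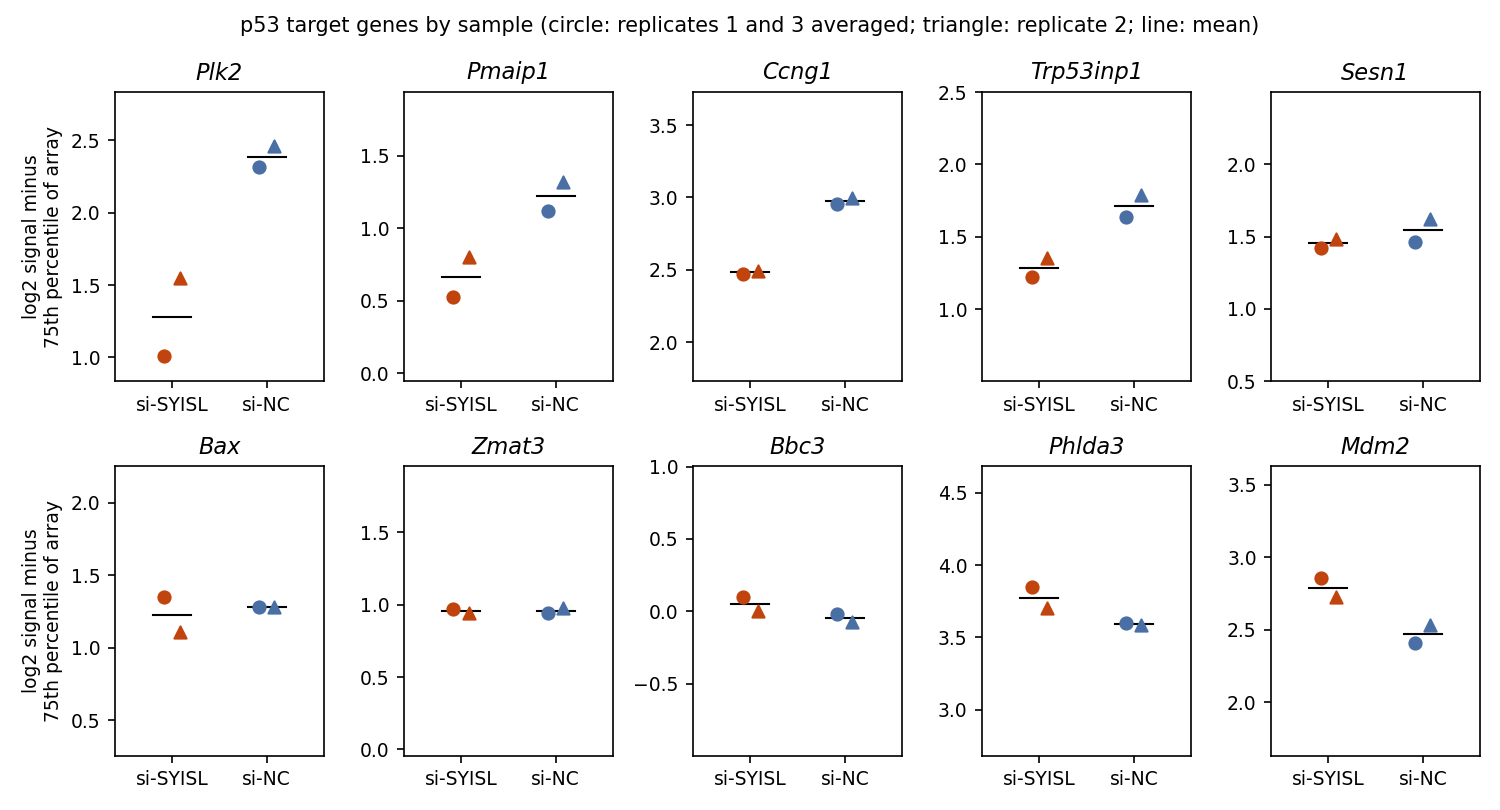
Level of each of the 10 p53 target genes by sample, as log2 signal minus the 75th percentile of the array, in panels that all span 2 log2 units. Circles are the averaged replicates 1 and 3, triangles replicate 2 and lines the group means. Without overlap, si-SYISL lies below si-NC for Plk2, Pmaip1, Ccng1 and Trp53inp1 (15.8% of all features), and slightly above it for Bbc3, Phlda3 and Mdm2 (46.3% of all features).

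Before the subtraction, the groups did not overlap and si-SYISL was the lower for 4 members (15.8% of all features) and the higher for 3 members (46.3% of all features). This split depends on the scaling. With each array scaled to its median, 6 genes lay below (25.0% of all features) and 0 above (27.7% of all features), Sesn1 and Zmat3 joining the lower genes. With quantile normalisation 5 lay below (24.1% of all features) and 2 above (30.3% of all features). Plk2, Pmaip1, Ccng1 and Trp53inp1 were lower under all 3 scalings. The median difference of the 10 genes was -0.23 relative to all features, with 8 below and 2 above the median of all features, whose interquartile range was -0.20 to 0.20. Without the subtraction the median of the 10 genes was only -0.071, with 7 genes lower and 3 higher. Much of the -0.23 is thus the subtracted median. Under quantile normalisation the median relative to all features was -0.10.

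**Figure D2:**
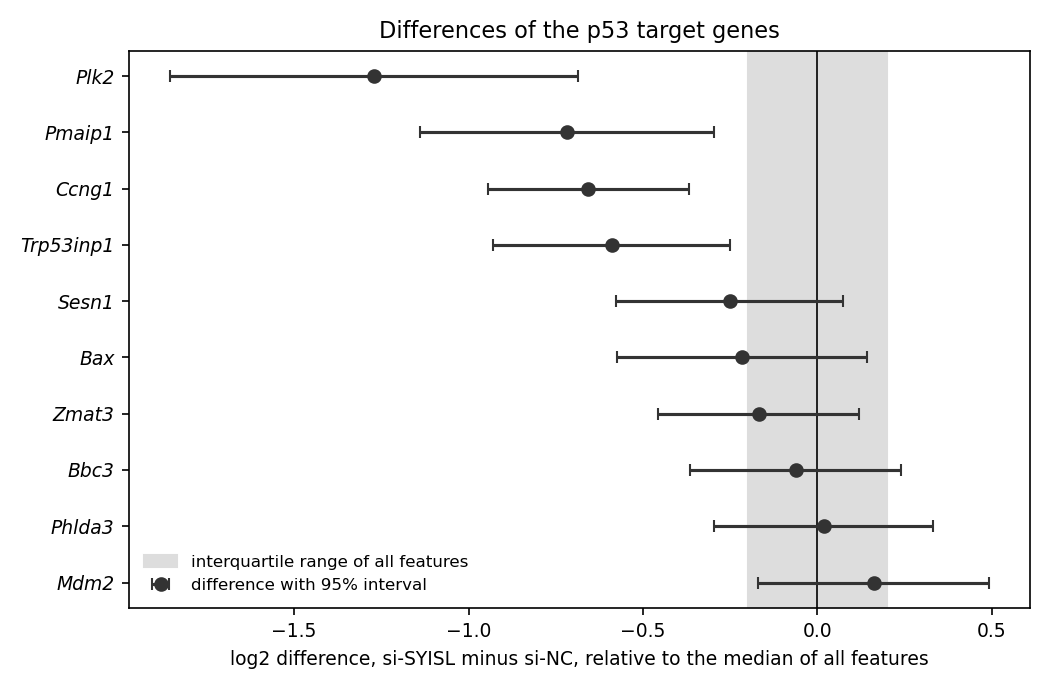
Log2 difference, si-SYISL minus si-NC, of each p53 target gene relative to the median of all features, with its 95% limma interval. Each interval was shifted by that median, which was taken as fixed. Before the shift, the upper ends were -0.13 for Pmaip1 and -0.087 for Trp53inp1. The shaded band is the interquartile range of all features, -0.20 to 0.20; the intervals of Plk2, Pmaip1, Ccng1 and Trp53inp1 lie wholly to the left of the band, and those of the other 6 genes reach across zero.

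The gene for p53 itself, Trp53, was measured by 1 probe, which was well above background on all 6 arrays. Its scanner intensities were 168, 401 and 181 on si-SYISL arrays 1 to 3 and 1363, 1400.2 and 1456 on si-NC arrays 1 to 3. The log2 levels were -3.88 and -2.33 in si-SYISL and -0.85 and -1.02 in si-NC, with no overlap. The si-SYISL samples were far apart (SD 1.09, against 0.11 in si-NC). The difference was -2.33 ± 0.54 (95% interval -3.77 to -0.89, adjusted p = 0.152), or 5.04-fold lower relative to the median of all features. Before the subtraction the level was 4.50-fold lower. Of all features, 0.0805% had a lower difference. Without the averaged si-SYISL replicates 1 and 3 the Trp53 difference was -1.59, and without si-SYISL replicate 2 it was -3.06. Trp53 was thus lower in every si-SYISL sample, as were its targets Plk2, Pmaip1, Ccng1 and Trp53inp1. Its targets Mdm2, Phlda3 and Bbc3 were not lower before the subtraction of the median, and with median scaling their groups overlapped. Sesn1, Bax and Zmat3 overlapped in the reported setting. Whether the levels of the targets follow that of Trp53 was not tested.

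Of the p53 family and its regulators, 29 of 30 listed genes were kept, with 0 called in either direction and a median of -0.06. Mdm4, the relative of Mdm2 that masks the activation domain of p53, differed by -0.42 ± 0.14 at its brighter probe (adjusted p = 0.308) and by -0.087 at its dimmer probe. Without si-SYISL replicate 2 the Mdm4 difference at the brighter probe was -0.26. Ppp1r13l, which encodes the p53 inhibitor iASPP, had levels of 1.00 and 0.80 in si-SYISL and 0.31 and 0.40 in si-NC and differed by 0.38 ± 0.13 (adjusted p = 0.145).

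Other direct p53 targets were all measured, 42 of 42, with 0 called, 27 below and 15 above the median of all features, and a median of -0.087. Cdkn1a, the cell cycle inhibitor p21, had levels of 3.77 and 3.50 in si-SYISL and 3.41 and 3.45 in si-NC. It differed by 0.042 ± 0.14 at this probe (adjusted p = 0.395) and by -0.61 at a dimmer probe with another accession. With 1 sample left out the Cdkn1a difference took both signs, from -0.12 without the averaged si-SYISL replicates 1 and 3 to 0.22 without si-SYISL replicate 2, and was 0.013 without the averaged si-NC replicates 1 and 3 and 0.086 without si-NC replicate 2. Rrm2b, the p53-induced ribonucleotide reductase subunit, had levels of -2.75 and -2.70 in si-SYISL and -2.17 and -2.25 in si-NC and differed by -0.68 ± 0.11 (adjusted p = 0.136), with -0.32 at its dimmer probe. Pml, the scaffold of nuclear bodies, differed by 0.41 ± 0.14 (adjusted p = 0.148), with 0.070 at its dimmer probe.

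The BCL2 family and apoptosome list had 23 of 23 genes measured, 0 called, 19 below and 4 above the median of all features, and a median of -0.15. Bnip3, a mitochondrial protein of mitophagy, differed by 0.49 ± 0.14 (adjusted p = 0.139), and its 3 probes gave 0.43 to 0.56.

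Paralogues of the 10 genes had 14 of 15 kept and a median of -0.44, with 0 called and 12 below the median of all features. Some of the 14, among them Mdm4 and Sesn2, also stand in other lists here, so the lists are not independent. Ccng2, the paralogue of Ccng1, had levels of -0.23 and -0.19 in si-SYISL and 0.27 and 0.49 in si-NC. The Ccng2 difference was -0.75 ± 0.13 (adjusted p = 0.140), in the same direction as that of Ccng1. Sesn3, a paralogue of Sesn1, differed by -0.88 ± 0.24 (adjusted p = 0.197) and Sesn2, a further stress-induced sestrin, by -0.074 ± 0.11 (adjusted p = 0.613), or -0.023 without si-SYISL replicate 2. Phlda1, a paralogue of Phlda3, had levels of 3.21 and 3.44 in si-SYISL and 4.04 and 4.10 in si-NC. It differed by -0.90 ± 0.13 (adjusted p = 0.123), where Phlda3 differed by 0.018. Plk4, the master kinase of centriole duplication and a paralogue of Plk2, differed by -0.68 ± 0.11 (adjusted p = 0.140). Trp53inp2, the autophagy paralogue of Trp53inp1, differed by -0.29 ± 0.17 (adjusted p = 0.650), and by -0.14 without the averaged si-SYISL replicates 1 and 3.

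Markers of proliferation and of muscle differentiation were also measured. All 14 proliferation markers lay below the median of all features (median -0.54, range -1.15 to -0.17). The 2 with the smallest p were the mitotic kinesin Kif11 (-1.15 ± 0.17, adjusted p = 0.122) and the kinase Cdk1 (-0.88 ± 0.15, adjusted p = 0.136). The other probes of Cdk1 gave -0.85 and -0.50. Of 12 muscle differentiation markers, 10 lay above it (median 0.76), among them the myosin-binding protein gene Mybpc2 (1.67 ± 0.12, adjusted p = 0.0840) and the troponin gene Tnnc2 (1.21 ± 0.11, adjusted p = 0.0840). In both lists 0 genes were called, and the part of either in the values of the p53 targets was not tested.

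**Figure D3:**
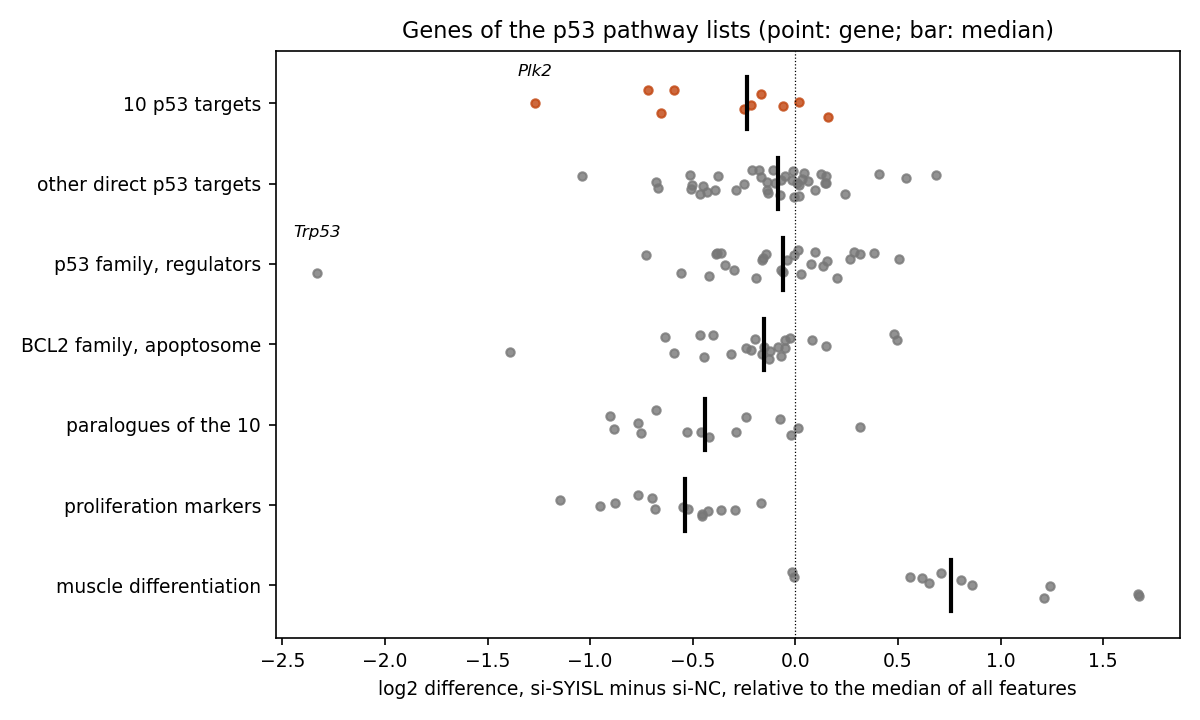
Log2 difference, si-SYISL minus si-NC, of every measured gene in the p53 lists and in 2 marker lists, relative to the median of all features. Each point is a gene and each bar the median of its list; the 10 p53 targets have a median of -0.23, with Plk2 at -1.27, and Trp53 lies at -2.33.

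The genes whose centred levels over the 4 samples were nearest to those of 3 of the targets were taken from 17489 named genes, by the root mean square difference in log2. For Plk2 they were Mex3b (0.0248), Zfp560 (0.0288) and Ppat (0.0342). For Ccng1 they were Dusp22 (0.0101), Gemin2 (0.0114) and Pdlim1 (0.0160). For Mdm2 they were Ift46 (0.00607), Zfp488 (0.00845) and Trmt61a (0.0117). With 4 samples, this likeness describes these arrays only.

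Across the 19 alternative settings of normalisation, filtering, testing and left-out samples, the differences of Plk2 (-1.50 to -1.03), Pmaip1 (-0.83 to -0.58), Ccng1 (-0.69 to -0.57) and Trp53inp1 (-0.67 to -0.42) stayed below 0. Sesn1 (-0.34 to -0.12), Bax (-0.37 to -0.031) and Zmat3 (-0.21 to -0.016) also stayed below 0. The groups of these genes overlapped in the reported setting, and most of each reported difference was the subtracted median. Before the subtraction they differed by -0.089, -0.053 and -0.0055. Mdm2 stayed above 0 (0.062 to 0.37), and Bbc3 and Phlda3 took both signs. Not every setting could change a sign. Variance trend, array weights, the replicate block and median-shift scaling left the differences practically unchanged by design, so they do not test the signs. The filters and the use of every probe on its own moved all of these genes by a shared small amount. The ends of the ranges came from the other settings.

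**Figure D4:**
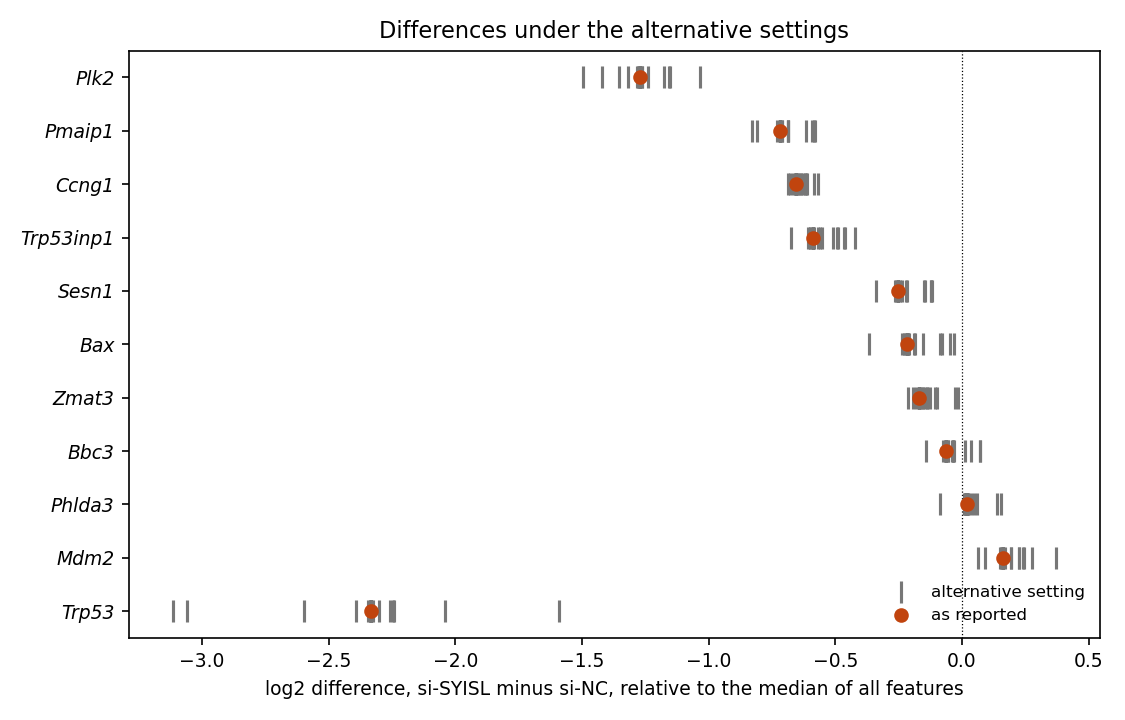
Log2 difference, si-SYISL minus si-NC, of the 10 p53 target genes and Trp53 relative to the median of all features under the reported setting (filled point) and under the 19 alternatives (ticks). Plk2, Pmaip1, Ccng1, Trp53inp1, Sesn1, Bax, Zmat3 and Trp53 stay below 0 throughout, Trp53 ranging from -3.11 to -1.59, while Bbc3 and Phlda3 lie on both sides of 0. For Sesn1, Bax and Zmat3 the groups overlapped in the reported setting. Variance trend, array weights, the replicate block and median-shift scaling practically cannot move a point, so their ticks do not test the sign.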

How the data were processed

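One scanner file was used for each of 3 si-SYISL and 3 si-NC replicates, with Cy3-labelled RNA (1 µg of total RNA each). The deposited intensity is gProcessedSignal, from which Feature Extraction 11.0.1.1 had removed background and spatial trend, per the file headers (the submitters' processing notes give 10.5.1.1). Deposited flags for outlier spots and for signal well above background (unit other) were used as given. The deposited log2 series matrix (34456 probes, medians 8.58 on each array, nearly equal quantiles, so quantile normalisation by the authors is likely) was used as an alternative. The number of arrays limits the precision.

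Each log2 signal was set relative to the 75th percentile of the non-control spots of its array, outlier spots were dropped and spots of a probe averaged. Of 39429 probes, 27234 were named through unversioned RefSeq accessions of GRCm38.p6; the array was designed on another assembly. Kept probes were well above background on every array of si-SYISL, of si-NC or of both, and the probe with the highest mean stood for a gene. Groups were compared with limma 3.58.1 (lmFit, eBayes, two-sided) in R 4.3.3, adjusted by Benjamini-Hochberg over all 28563 features, and the fit was tested on simulated data. Start-site windows were searched in Python 3.11.15.

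Named genes were the 10 targets, the 2 other genes with the smallest p of each list, Trp53, Mdm4, Cdkn1a, Ccng2, Sesn2, Sesn3 and Trp53inp2, and the 3 genes nearest to Mdm2, Ccng1 and Plk2 (clone and predicted-gene names left out). A gene that this rule names is not reported here. Members, lists, tests and the averaging of replicates 1 and 3 were chosen with earlier results of these data known. Normexp ran on median rather than mean pixel values. Alternatives covered normalisation, background, filters, probes, variance models, weights, blocks, scans and left-out samples.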

Additional observations from a re-analysis of the deposited data

How the results depend on the processing

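With the 6 arrays as 6 samples, which counts replicates 1 and 3 separately, limma called 6 of the 10 p53 targets (Mdm2 and Phlda3 higher, Plk2, Ccng1, Pmaip1 and Trp53inp1 lower) among 9764 features (34.2%). It then also called 13 other p53 targets, 12 regulators, 6 BCL2 family genes, 6 paralogues, 5 proliferation markers and 10 muscle markers. With a variance trend it called 2 of the targets, 1 BCL2 family gene, 1 paralogue, 2 proliferation markers and 9 muscle markers among 893 features. Muscle markers called numbered 4 with normexp background (183 features called), 2 with the filter on all 6 arrays (46 features) and 2 with the scan as a block (83 features). Leaving out 1 of the 4 samples at a time gave 0 of the targets, 0 to 1 other p53 targets, 0 to 1 proliferation markers and 0 to 6 muscle markers, among 0 to 1364 features called. In these fits the lone sample is assumed to vary like the other group. A gene that stands in more than 1 of the lists is counted in each.

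The median of the 10 targets was -0.10 with quantile normalisation and -0.10 with the series matrix, and lay between -0.31 and -0.17 with a sample left out. With median-shift scaling 0 targets had both si-SYISL samples above both si-NC samples. Signs turned for Bbc3 (0.069 with quantile normalisation, 0.070 with the series matrix, 0.011 within the scan of replicate 3, 0.034 without si-SYISL replicate 2) and Sesn2 (0.046 with quantile normalisation, 0.047 with the series matrix). They also turned for Phlda3 (-0.086) and Cdkn1a (-0.12) without the averaged si-SYISL replicates 1 and 3, and for Cdkn1a (-0.29) with the mean of its probes. With the other samples left out Bbc3 stayed below 0, at -0.068 without si-NC replicate 2 and -0.14 without the averaged si-SYISL replicates 1 and 3. The causes were not tested.

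Replicate numbers are shared by both groups, but same-numbered samples did not deviate together (r = -0.03 over 28553 features). With the replicate number as a block 0 of the targets were called, Plk2 differing by -1.27 (adjusted p = 0.190), and no other call changed. Within the scan of replicates 1 and 2 Plk2 differed by -1.26 and Trp53 by -2.34, and within that of replicate 3, with no test, by -1.42 and -3.11. Replicate 3 was counted with replicate 1 as 1 sample in each group, so its scan is not a separate repeat.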
